A study of Homo sapiens with 6 samples.

Results

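The 38 genes described here are the aminoacyl-tRNA synthetases and AIMP scaffold proteins that were matched by symbol among the 36884 genes of the table. They comprise 20 cytosolic enzymes or enzyme subunits, 16 mitochondrial enzymes, whose symbols end in 2, and the scaffold proteins AIMP1 and AIMP2. All 38 were counted and passed the filter on low counts. The symbols VARS and VARS2 stood on 7 and 6 rows, of which all but 1 row each held no count, and the counted row was used.

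RNA was sequenced from RPE1, a non-transformed human epithelial line derived from the retinal pigment epithelium and immortalised with telomerase. In every library of the study the kinases LATS1 and LATS2 had been inactivated by CRISPR-Cas9, so the controls carry this change too, and whether the cells are 1 clone is not given in the sources used here. The cells received control siRNA or siRNA against MK5, the kinase encoded by MAPKAPK5, for 48 h, with 3 libraries, named as biological replicates by the submitters, in each group. Wherever 3 levels or ratios of a gene stand together below, they are those of replicates 1, 2 and 3. MAPKAPK5 had 35.6, 29.05 and 31.3 CPM in the controls against 17.4, 14.1 and 16.2 CPM after MK5 siRNA, lower in every library (−1.01 ± 0.14 on the log2 scale, edgeR adjusted p = 0.00169).

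Aminoacyl-tRNA synthetases join each amino acid to its tRNA, the step that puts the genetic code into effect at the ribosome. Cytosol and mitochondria run separate protein synthesis, and most amino acids have a cytosolic and a mitochondrial enzyme from different nuclear genes, while GARS and KARS each supply both compartments from a single gene. Several cytosolic enzymes assemble with the AIMP proteins into the multisynthetase complex. When charged tRNA runs short or the endoplasmic reticulum is stressed, eIF2alpha kinases raise translation of the transcription factor ATF4, and many cytosolic synthetase genes are known ATF4 targets.

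Levels are in CPM, counts scaled to the TMM-adjusted library total. Changes are log2 fold changes of the MK5 siRNA group over the control group, given ± the standard error from edgeR (n = 3 per group). A gene "rose" or "fell" when edgeR's quasi-likelihood test gave a Benjamini-Hochberg adjusted p below 0.05 over 13431 genes. Library totals lay between 27188074 and 28236773 counts. Replicate 1 stood apart in both groups, more so in the controls: over the 38 genes its median distance from the mean of replicates 2 and 3 was 0.22 in the controls and 0.12 after MK5 siRNA on the log2 scale, while replicates 2 and 3 differed by 0.070 and 0.071. Of the markers that define retinal pigment epithelium, OTX2 was at 32.4 CPM in controls and 34.8 CPM after MK5 siRNA, and RPE65, RLBP1 and TYR were close to 0, at no more than 0.025 CPM in either group. MITF fell from 54.1 to 25.3 CPM and PMEL from 2.04 to 0.546 CPM, and the 8 markers of the list summed to 83.6 to 95.5 CPM in controls and 58.4 to 66.3 CPM after MK5 siRNA. The 4 simple epithelium markers summed to 752 to 827 CPM in controls and to 387 to 573 CPM after MK5 siRNA. Of these, KRT8 fell from 642 to 363 CPM and KRT18 from 148 to 88.7 CPM. EPCAM was at 0, and CDH1 at 0.124 CPM in controls and 0.0238 CPM after MK5 siRNA. The part of these marker changes in the results below was not tested. The 3 mesenchymal markers, VIM, FN1 and CDH2, summed to far more, 7073 to 8109 CPM in controls and 6803 to 8739 CPM after MK5 siRNA. Summed leukocyte markers did not exceed 0.474 CPM in any library, endothelial markers reached 3.22 CPM in controls and 0.348 CPM after MK5 siRNA, and muscle markers stayed under 0.077 CPM. RNA came from whole cultures, so a change in the number of cells that use a gene cannot be told apart from a change per cell.

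Most cytosolic synthetase transcripts that changed after MK5 siRNA rose, whereas mitochondrial ones moved in both directions. Of all 38 genes 14 rose and 7 fell, so 55.3% passed, where 46.2% of all tested genes did. Among the 20 cytosolic genes, 11 rose, 2 fell and 7 did not pass. That is 55.0% rising and 10.0% falling, where 22.5% of all tested genes rose and 23.7% fell. Their median log2 fold change was 0.51, and that of all tested genes was 0.00031. Of the 16 mitochondrial enzymes 3 rose, 4 fell and 9 did not pass, with a median of −0.14. These shares, 18.8% and 25.0%, lie near those of all genes and say nothing particular about the mitochondrial set. Without control replicate 1, 12 cytosolic genes rose and 5 fell, where 32.3% of all tested genes rose and 32.1% fell. Without MK5 siRNA replicate 2 or 3, 1 cytosolic gene fell, where 15.4% and 15.8% of all tested genes did. A test of the difference between the classes was not made, since their members are not replicates.

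The 20 cytosolic transcripts together made up 3345, 3075 and 3144 CPM in the controls and 4970, 5043 and 5231 CPM after MK5 siRNA. Every MK5 siRNA library thus held a larger cytosolic synthetase pool than any control. The 16 mitochondrial transcripts summed to 691, 709 and 731 CPM in the controls and to 683, 688 and 709 CPM after MK5 siRNA, with overlapping ranges. The cytosolic sum was 4.84, 4.34 and 4.30 times the mitochondrial sum in the controls, and 7.28, 7.33 and 7.38 times after MK5 siRNA. A test was not made on these sums.

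**Figure D1:**
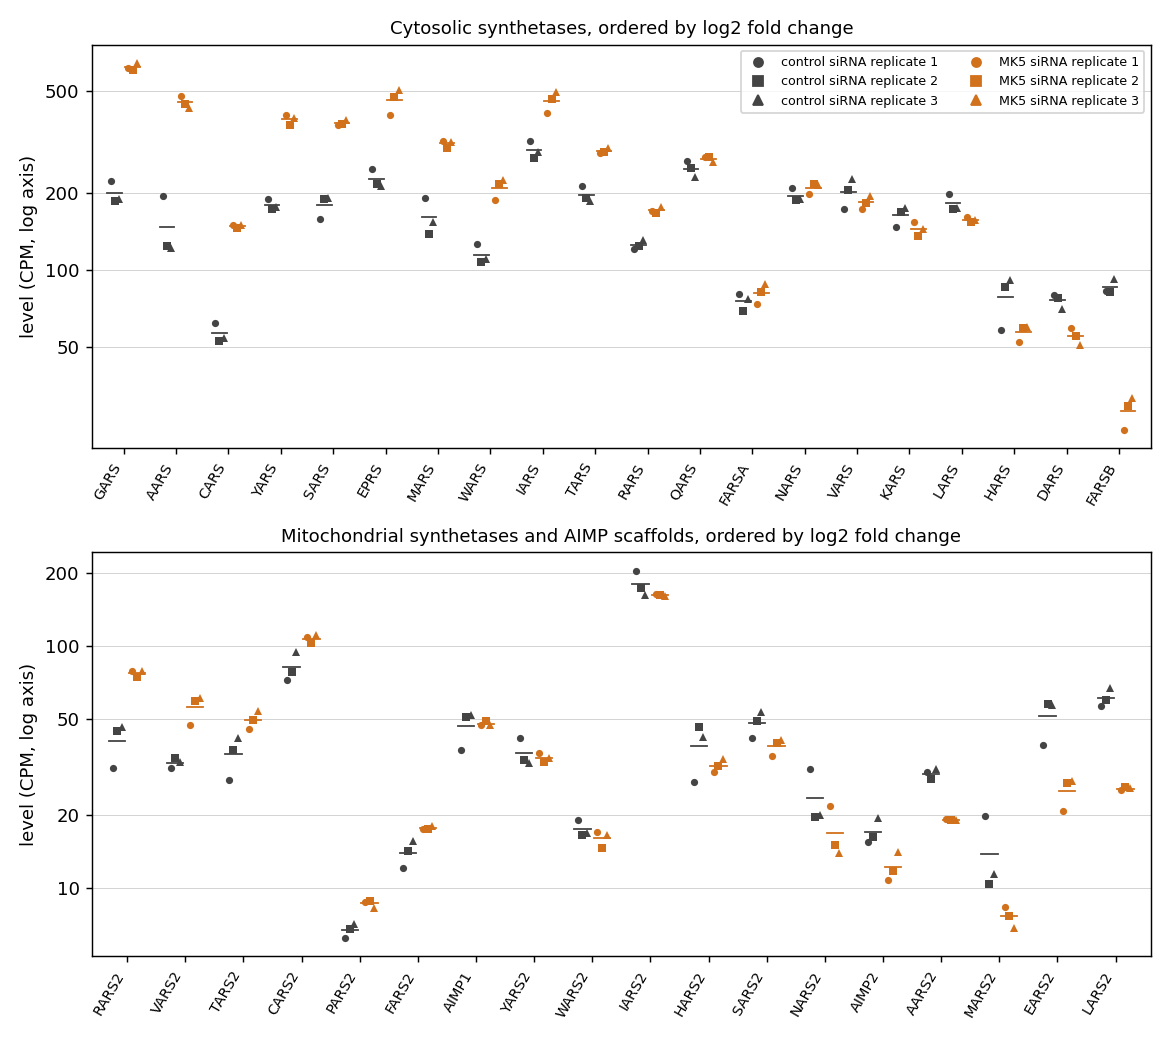
Levels of the 38 genes in each library, in CPM on a log axis, with 3 control siRNA libraries in grey and 3 MK5 siRNA libraries in orange. Horizontal bars are group means, marker shapes are replicates 1 to 3, and genes are ordered by log2 fold change within cytosolic enzymes (top) and mitochondrial enzymes with AIMP1 and AIMP2 (bottom). All MK5 siRNA libraries lie above all controls for the 11 cytosolic genes at the left, from GARS to RARS. These are the cytosolic genes called as rising, and 30.6% of all tested genes were higher without overlap.

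Glycyl-, alanyl- and cysteinyl-tRNA synthetase showed the largest rises. GARS (ENSG00000106105), which charges glycine tRNA in the cytosol and, from the same gene, in mitochondria, was at 223, 186 and 189 CPM in the controls and 614, 604 and 645 CPM after MK5 siRNA. Its groups were far apart, with a log2 fold change of 1.64 ± 0.11 or 3.12-fold (edgeR adjusted p = 0.000212). AARS (ENSG00000090861), the alanine enzyme, stood at 195, 124 and 122 CPM in the controls and 480.5, 447 and 431 CPM after MK5 siRNA. Control replicate 1 was the highest control, yet the lowest MK5 siRNA library exceeded it, and the log2 fold change was 1.62 ± 0.20 (edgeR adjusted p = 0.00111), or 1.88 without control replicate 1. CARS (ENSG00000110619), the cysteine enzyme, was at 62.1, 52.9 and 54.4 CPM in the controls and reached 150.1, 146 and 150.1 CPM (1.40 ± 0.10, edgeR adjusted p = 0.000249).

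YARS, SARS and EPRS also rose by at least 2-fold, which 10.8% of all tested genes did and 6 of the 20 cytosolic genes. Under the alternative fits described below, the log2 fold change went as low as 0.96 in EPRS and 0.99 in SARS. It went as high as 1.10 in MARS and 1.02 in WARS, so genes near this cut shift across it. The tyrosine enzyme gene YARS (ENSG00000134684) was at 189.7, 173 and 177 CPM in the controls and 404, 370.4 and 394 CPM after MK5 siRNA, by 1.11 ± 0.10 (edgeR adjusted p = 0.000379). SARS (ENSG00000031698), for serine, went from 159, 190.1 and 190.3 CPM to 369.7, 372 and 387 CPM, by 1.07 ± 0.11 (edgeR adjusted p = 0.000648). Unlike AARS, its lowest control was replicate 1. WARS, the tryptophan enzyme, which interferon is known to induce, was at 127, 107 and 110.5 CPM in controls and 188, 216 and 225 CPM with MK5 siRNA (0.87 ± 0.12, edgeR adjusted p = 0.00169). TARS, for threonine, held 212, 191 and 187 CPM in the controls and 287, 291 and 299.5 CPM after MK5 siRNA (0.57 ± 0.10, edgeR adjusted p = 0.00372). In these genes no library of either group crossed into the range of the other.

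Within the multisynthetase complex, as outside it, the cytosolic enzymes did not all move together. Of the 8 enzyme genes of the complex 4 rose (EPRS, MARS, IARS and RARS), 1 fell (DARS) and 3 did not pass (QARS, KARS and LARS). Of the other 12 cytosolic genes 7 rose, 1 fell and 4 did not pass. That is 50% rising and 12.5% falling in the complex, and 58.3% and 8.33% outside it. Of all tested genes 22.5% rose and 23.7% fell. EPRS (ENSG00000136628), a fusion of the glutamate and proline enzymes, was at 249, 217 and 213 CPM in the controls and at 405, 474 and 506 CPM after MK5 siRNA (1.03 ± 0.13, edgeR adjusted p = 0.00112). MARS (ENSG00000166986), which charges the initiator and elongator methionine tRNAs, went from 192, 138 and 154 CPM to 319.7, 299.7 and 317 CPM (0.95 ± 0.14, edgeR adjusted p = 0.00207). Its exons share 62 bases with DDIT3 on the opposite strand in GENCODE 29, and DDIT3 went from 6.52 to 51.3 CPM. The part of these shared bases in the rise of MARS was not tested. IARS, for isoleucine, was at 321, 274 and 289.6 CPM in the controls and reached 412, 466 and 494 CPM (0.63 ± 0.12, edgeR adjusted p = 0.00494). RARS, for arginine, had the smallest called rise of the cytosolic set, from 121, 124 and 131 to 169.8, 167 and 176 CPM (0.45 ± 0.092, edgeR adjusted p = 0.00757).

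DARS (ENSG00000115866), the aspartate enzyme of the complex, was at 80.03, 77.7 and 70.3 CPM in the controls and 59.3, 54.9 and 51.003 CPM after MK5 siRNA, by −0.47 ± 0.11 (edgeR adjusted p = 0.0123). All its MK5 siRNA libraries were below all controls, but its call was lost when MK5 siRNA replicate 2 or 3 was left out (edgeR adjusted p of 0.0623 and 0.0687). DARS-AS1, an antisense RNA that shares 114 bases of exon with DARS, went from 1.25 to 3.05 CPM. Without strand information, reads from such bases cannot be assigned to either gene.

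QARS, KARS and LARS did not pass. QARS, for glutamine, was at 267, 249 and 230.3 CPM in the controls and 276, 276 and 265 CPM after MK5 siRNA (0.13 ± 0.10, edgeR adjusted p = 0.322). KARS, for lysine in both compartments, held 147, 168 and 175 CPM in controls and 154, 135 and 144 CPM with MK5 siRNA (−0.18 ± 0.11, edgeR adjusted p = 0.227). LARS, the leucine enzyme, which also senses leucine for mTORC1, was at 198, 173 and 175 CPM in controls and 161, 155 and 157 CPM after MK5 siRNA, with groups apart by a narrow margin (−0.21 ± 0.10, edgeR adjusted p = 0.123). Without control replicate 1, KARS passed downward at −0.24 (edgeR adjusted p = 0.0237) and QARS upward at 0.19 (edgeR adjusted p = 0.0498). In that fit 64.4% of all tested genes passed, against 46.2% with all libraries. The same share applies to every call without control replicate 1 given below. LARS passed without replicate 1 of both groups, at −0.16 (edgeR adjusted p = 0.0192), a fit in which 75.8% of all tested genes passed.

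The scaffold genes did not rise. AIMP1, which is also released as a cytokine, was at 37.3, 50.98 and 51.8 CPM in the controls and 47.2, 48.9 and 46.9 CPM after MK5 siRNA (0.030 ± 0.15, edgeR adjusted p = 0.878). AIMP2, which holds the complex together, was at 15.5, 16.1 and 19.3 CPM in controls and 10.8, 11.7 and 14.005 CPM with MK5 siRNA, a log2 change of −0.48 ± 0.16 (edgeR adjusted p = 0.0467). That call sits near the threshold and was lost when any single library except control replicate 1 was left out (edgeR adjusted p from 0.0589 to 0.154). In GENCODE 29, 38.7% of the AIMP2 exon bases also belong to EIF2AK1 on the other strand, an eIF2alpha kinase gene that rose by 0.38 ± 0.090 (edgeR adjusted p = 0.0132). EEF1E1, the third scaffold of the complex (also called AIMP3), was at 6.28, 5.603 and 6.95 CPM in the controls and 1.02, 1.32 and 1.35 CPM after MK5 siRNA (−2.35 ± 0.22, edgeR adjusted p = 0.000436).

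The 2 subunits of cytosolic phenylalanyl-tRNA synthetase, which works as a tetramer of alpha and beta chains, parted. FARSB (ENSG00000116120), the beta chain, was at 82.9, 82.1 and 91.7 CPM in the controls and at 23.6, 29.5 and 31.4 CPM after MK5 siRNA. Its log2 fold change of −1.60 ± 0.14, a 3.04-fold fall (edgeR adjusted p = 0.000358), was the largest fall of all 38 genes. FARSA (ENSG00000179115), the alpha chain, was at 80.4, 69.01 and 76.7 CPM in controls and 73.5, 81.7 and 88.4 CPM after MK5 siRNA, with overlapping groups (0.11 ± 0.12, edgeR adjusted p = 0.476). FARSA had 0.970, 0.841 and 0.836 times the counts of FARSB in the controls, and 3.11, 2.77 and 2.81 times after MK5 siRNA. This subunit ratio, which needs no library scaling, was singled out after its values were seen. No exon base of FARSB belonged to another gene in the basic set of GENCODE 29, the only set searched.

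NARS, VARS and HARS complete the cytosolic set. NARS, for asparagine, was at 209, 187 and 189 CPM in controls and 198, 216 and 214 CPM after MK5 siRNA (0.10 ± 0.10, edgeR adjusted p = 0.439), while ASNS, which makes asparagine, rose from 38.1 ± 26.9 to 226 ± 11.4 CPM (SD, n = 3). VARS, for valine, held 173, 206 and 226 CPM in the controls and 174, 183 and 195 CPM after MK5 siRNA (−0.14 ± 0.13, edgeR adjusted p = 0.41), and without control replicate 1 it passed downward at −0.23 (edgeR adjusted p = 0.0382). HARS, for histidine, was at 57.9, 85.7 and 90.9 CPM in controls and 51.99, 59.1 and 59.99 CPM after MK5 siRNA, where control replicate 1 lay inside the MK5 siRNA range (−0.46 ± 0.18, edgeR adjusted p = 0.0783). With the replicate number as a block HARS passed, at −0.43 (edgeR adjusted p = 0.0489), and without control replicate 1 it was at −0.63 (edgeR adjusted p = 0.000498). By catalytic fold, 7 of the 10 class I cytosolic genes rose and none fell (3 did not pass). Of the 10 class II genes 4 rose, 2 fell and 4 did not pass, where 22.5% of all tested genes rose and 23.7% fell. No test of the difference between class I and class II was made.

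**Figure D2:**
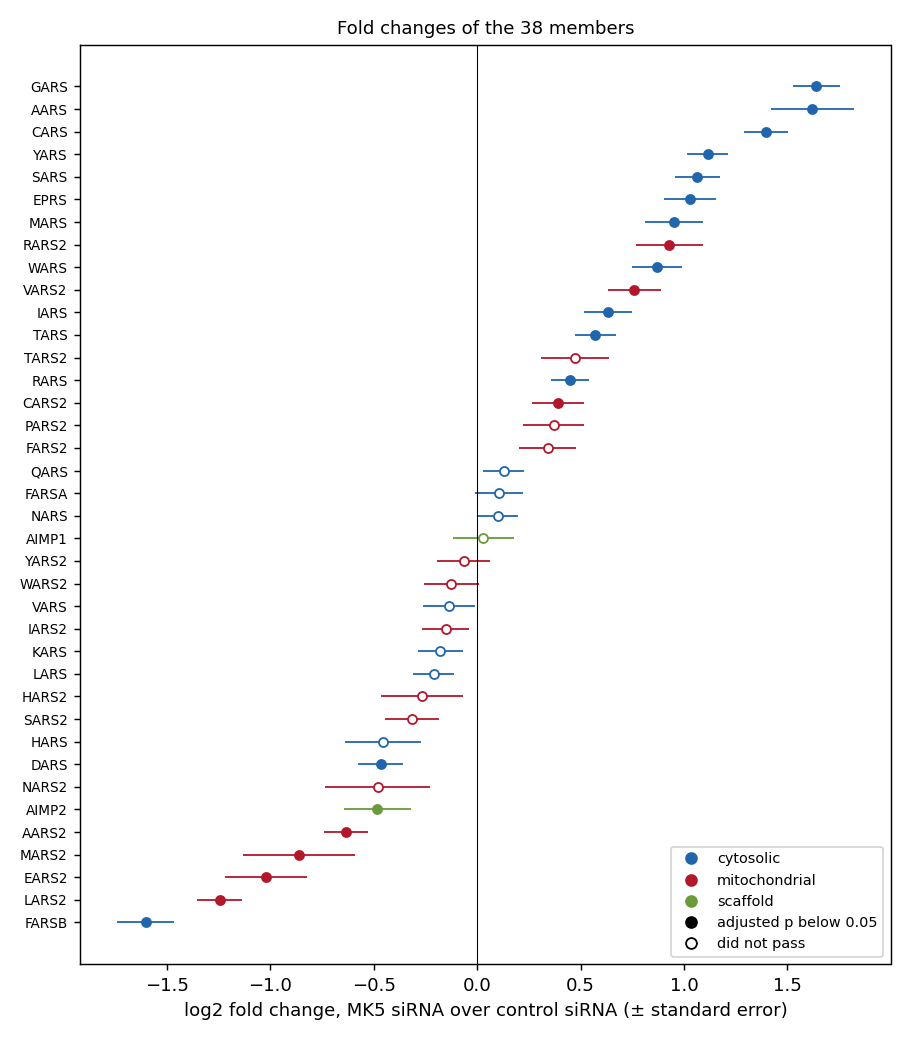
Log2 fold change of each of the 38 genes, MK5 siRNA over control siRNA, with the standard error of edgeR's fit as bars (n = 3 per group). Blue marks cytosolic, red mitochondrial and green scaffold genes, and filled points passed at an adjusted p below 0.05. Values run from −1.60 in FARSB to 1.64 in GARS.

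The promoters of the 38 genes were searched for the core of the C/EBP-ATF response element, the composite site that ATF4 binds with C/EBP proteins. RefSeq promoters (GRCh38.p14, 250 bases before to 50 after an annotated start) were matched for 32 of the 38 genes, and DARS, LARS, VARS, YARS, AARS2 and VARS2 were not matched. Of the 32 genes 11 have more than 1 start in the table, and every start was searched, 44 in all. The word TGATGNAA or its reverse complement stood at a start of 8 of the 32 genes, and of 4.46% of all 27305 genes of the table (2.84% of the 10587 matched genes tested here). Counted by start, it was 8 of 44 (18.2%), where 3.62% of all 35116 starts held it. Of 10 matched cytosolic genes that rose 6 held it (AARS, CARS, GARS, IARS, MARS and TARS), and of 6 matched cytosolic genes that did not rise, 1 did (NARS). Among 14 matched mitochondrial genes it stood in YARS2, which did not pass. In CARS, GARS and TARS 1 of their 2 starts held the word, so the starts a table lists bear on these counts. The 30-base windows below show 6 of the 8 matches 5′ to 3′ on the strand of the gene, with the core in capitals.
CARS: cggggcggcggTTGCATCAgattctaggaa
IARS: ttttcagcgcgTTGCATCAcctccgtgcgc
MARS: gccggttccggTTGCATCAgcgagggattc
TARS: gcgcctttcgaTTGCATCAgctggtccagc
NARS: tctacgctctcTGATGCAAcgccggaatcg
YARS2: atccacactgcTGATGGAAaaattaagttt

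The windows lie at chr11:3057407-3057436 (CARS, minus strand), chr9:92293692-92293721 (IARS, minus), chr12:57488053-57488082 (MARS, plus), chr5:33440956-33440985 (TARS, plus), chr18:57621804-57621833 (NARS, minus) and chr12:32756076-32756105 (YARS2, minus), in GRCh38.p14. CARS, IARS, MARS and TARS share the 8 letters TTGCATCA, the reverse complement of the TGATGCAA in NARS. YARS2 has TGATGGAA, and not all matches among the rising genes have the same letters. Counted from the start site as base 1, the core began 13 bases upstream in IARS, 4 in MARS, 2 in CARS and 197 in YARS2, at base 3 in TARS and at base 15 in NARS. A match is a string of letters and not evidence of binding, and the NARS match goes with a log2 fold change of 0.10 that did not pass.

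Other words were searched in the same way. CCAAT or its reverse complement stood in 18 of the 32 genes (56.2%, against 39.7% of all genes of the table and 43.3% of those tested here), in 7 of 16 cytosolic and 9 of 14 mitochondrial ones. The E-box CACGTG stood in 5 (IARS, CARS2, EARS2, MARS2 and AIMP2; 15.6%, against 8.77% and 12.3%), and the consensus of NRF1, on either strand, in 7 (21.9%, against 6.98% and 13.2%). These 7 were SARS and TARS, which rose, FARSB, MARS2 and AIMP2, which fell, and IARS2 and PARS2, which did not pass.

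Among mitochondrial enzymes, which serve only the proteins encoded by mitochondrial DNA, LARS2 and EARS2 fell by at least 2-fold (11.5% of all tested genes did). Under the alternative fits EARS2 ran from −1.18 to −0.90 and MARS2 reached −1.06, so membership at this cut shifts. LARS2 (ENSG00000011376), for leucine, was at 56.4, 59.8 and 66.6 CPM in the controls and 25.2, 25.98 and 25.9 CPM after MK5 siRNA (−1.24 ± 0.11, edgeR adjusted p = 0.000379). EARS2 (ENSG00000103356), for glutamate, was at 38.8, 57.5 and 57.1 CPM in controls and 20.7, 27.2 and 27.6 CPM after MK5 siRNA, with replicate 1 the lowest library of each group (−1.02 ± 0.20, edgeR adjusted p = 0.00587). It shares 370 exon bases, 8.15% of its exons, with UBFD1 on the other strand, which went from 167 to 79.0 CPM. AARS2, for alanine, was at 29.96, 28.1 and 30.9 CPM in controls and 19.3, 19.1 and 19.1 CPM after MK5 siRNA (−0.63 ± 0.11, edgeR adjusted p = 0.00346), against the rise of its cytosolic partner AARS.

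MARS2 (ENSG00000247626), the mitochondrial methionine enzyme, was at 19.8, 10.3 and 11.4 CPM in the controls and 8.36, 7.65 and 6.83 CPM after MK5 siRNA (−0.86 ± 0.27, edgeR adjusted p = 0.0362). Control replicate 1 was 0.83 above the mean of the other controls on the log2 scale, and without it the log2 fold change was −0.51 (edgeR adjusted p = 0.0131). Its call was lost when MK5 siRNA replicate 1, 2 or 3 was left out (edgeR adjusted p of 0.0781, 0.105 and 0.119). NARS2, for asparagine, was at 31.1, 19.5 and 20.04 CPM in controls and 21.8, 14.99 and 13.9 CPM after MK5 siRNA, with replicate 1 the highest library of each group and the ranges overlapping (−0.48 ± 0.25, edgeR adjusted p = 0.16). With the replicate number as a block NARS2 passed, at −0.48 (edgeR adjusted p = 0.0247).

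RARS2, VARS2 and CARS2 rose. RARS2 (ENSG00000146282), for arginine, was at 31.2, 44.3 and 46.01 CPM in the controls and 78.7, 74.5 and 78.4 CPM after MK5 siRNA (0.93 ± 0.16, edgeR adjusted p = 0.0039). VARS2 (ENSG00000137411), for valine, was at 31.3, 34.3 and 33.1 CPM in controls and 47.3, 58.9 and 60.9 CPM after MK5 siRNA (0.76 ± 0.13, edgeR adjusted p = 0.00367). Neither gene had a library inside the range of the other group. CARS2, for cysteine, also known to make cysteine persulfides, was at 72.03, 78.3 and 94.7 CPM in controls and 108, 102 and 110.4 CPM after MK5 siRNA (0.39 ± 0.13, edgeR adjusted p = 0.0403). Its call was lost without control replicate 2 (edgeR adjusted p = 0.121) and without any single MK5 siRNA library (edgeR adjusted p from 0.0910 to 0.126).

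TARS2, PARS2 and FARS2 did not pass, although their MK5 siRNA libraries all lay above their controls. TARS2, for threonine, was at 28.01, 37.2 and 41.5 CPM in controls and 45.4, 49.2 and 53.6 CPM after MK5 siRNA (0.47 ± 0.16, edgeR adjusted p = 0.0515). With the replicate number as a block it passed, at 0.49 (edgeR adjusted p = 0.0276), as it did under 7 of 13 alternatives in all, among them without control replicate 1 and without control replicate 3 (edgeR adjusted p = 0.0193 and 0.0389). PARS2, for proline, was at 6.21, 6.75 and 7.06 CPM in the controls and 8.76, 8.83 and 8.28 CPM after MK5 siRNA (0.37 ± 0.15, edgeR adjusted p = 0.0799). FARS2, the single-chain mitochondrial phenylalanine enzyme, was at 12.1, 14.2 and 15.6 CPM in controls and 17.5, 17.5 and 17.9 CPM after MK5 siRNA (0.34 ± 0.14, edgeR adjusted p = 0.0852). In all, 6 of 16 mitochondrial genes (37.5%) were higher without overlap and 5 (31.2%) lower, where 30.6% and 29.8% of all tested genes were (60.4% in either direction).

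SARS2, IARS2, WARS2, YARS2 and HARS2 did not pass either. SARS2, for serine, was at 41.6, 48.7 and 53.2 CPM in controls and 34.9, 39.7 and 40.9 CPM after MK5 siRNA, lower without overlap (−0.31 ± 0.13, edgeR adjusted p = 0.089), and passed at −0.40 without control replicate 1 (edgeR adjusted p = 0.00736). IARS2, for isoleucine, was at 204, 174 and 162 CPM in controls and 163, 163 and 160.1 CPM after MK5 siRNA (−0.15 ± 0.11, edgeR adjusted p = 0.31). WARS2 and YARS2, for tryptophan and tyrosine, had log2 fold changes of −0.12 ± 0.13 and −0.065 ± 0.13 (edgeR adjusted p = 0.471 and 0.703). SARS2 overlaps MRPS12 on the other strand over 349 bases of exon, and 67.4% of its exon bases also lie in a readthrough gene of GENCODE 29.

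HARS2, for histidine, is a neighbour of HARS: in GRCh38.p14 their starts lie 85 bases apart on chromosome 5, at 140691370 on the minus strand (HARS) and 140691455 on the plus strand (HARS2), and run in opposite directions. HARS2 was at 27.4, 46.1 and 41.9 CPM in the controls and 29.99, 31.9 and 33.9 CPM after MK5 siRNA (−0.27 ± 0.20, edgeR adjusted p = 0.302). Control replicate 1 was the lowest control of both genes, by 0.60 in HARS and 0.67 in HARS2 below the mean of the other controls on the log2 scale. Without it HARS2 passed downward at −0.46 (edgeR adjusted p = 0.00311). The annotation gives the genes 402 exon bases in common, and without strand information a read from those bases cannot be assigned to either.

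Cytosolic and mitochondrial enzymes for the same amino acid were then compared within each library, as the log2 ratio of their CPM with 0.5 added. Of 17 such combinations 10 had all MK5 siRNA ratios above all control ratios, 4 had them below and 3 overlapped. The median change was 0.78. Of all tested genes, 60.4% had levels without overlap between the groups, in either direction. Such a share was not computed for ratios of other genes. In the 14 combinations without overlap a two-sided exact permutation test of 3 against 3 libraries gave p = 0.1, the smallest it can give (0.121 after Benjamini-Hochberg adjustment over the 17), so none could pass. EPRS and FARS2 each entered 2 combinations.

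The AARS to AARS2 ratio moved most. Its log2 value was 2.68, 2.13 and 1.96 in the controls and 4.61, 4.52 and 4.46 after MK5 siRNA, a change of 2.27. EPRS over EARS2 changed by 2.02, MARS over MARS2 by 1.73, SARS over SARS2 by 1.38 and YARS over YARS2 by 1.17. In AARS, EPRS and MARS both genes had called changes, in opposite directions, whereas in SARS and YARS the cytosolic gene alone passed. LARS over LARS2 changed by 1.02, with the fall of LARS2 as the called change. The log2 ratio of CARS to CARS2 was below 0 in every control (−0.21, −0.56 and −0.79) and above 0 in every MK5 siRNA library (0.47, 0.51 and 0.44). WARS over WARS2 changed by 0.99, IARS over IARS2 by 0.78 and EPRS over PARS2 by 0.68.

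Arginine, valine and phenylalanine went the other way. RARS over RARS2 changed from 1.94, 1.47 and 1.504 to 1.10, 1.16 and 1.16 (−0.50), as both genes rose and RARS2 rose further. VARS over VARS2 changed from 2.45, 2.57 and 2.76 to 1.87, 1.63 and 1.67 (−0.87), and FARSB over FARS2 by −1.93. HARS over HARS2 was lower by a narrow margin (−0.20). Ratios overlapped between the groups for NARS over NARS2 (0.56), TARS over TARS2 (0.089) and FARSA over FARS2 (−0.23). Without control replicate 1 the last of these was −0.088, and TARS over TARS2 was 0.31, while without control replicate 3 it was −0.066.

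**Figure D3:**
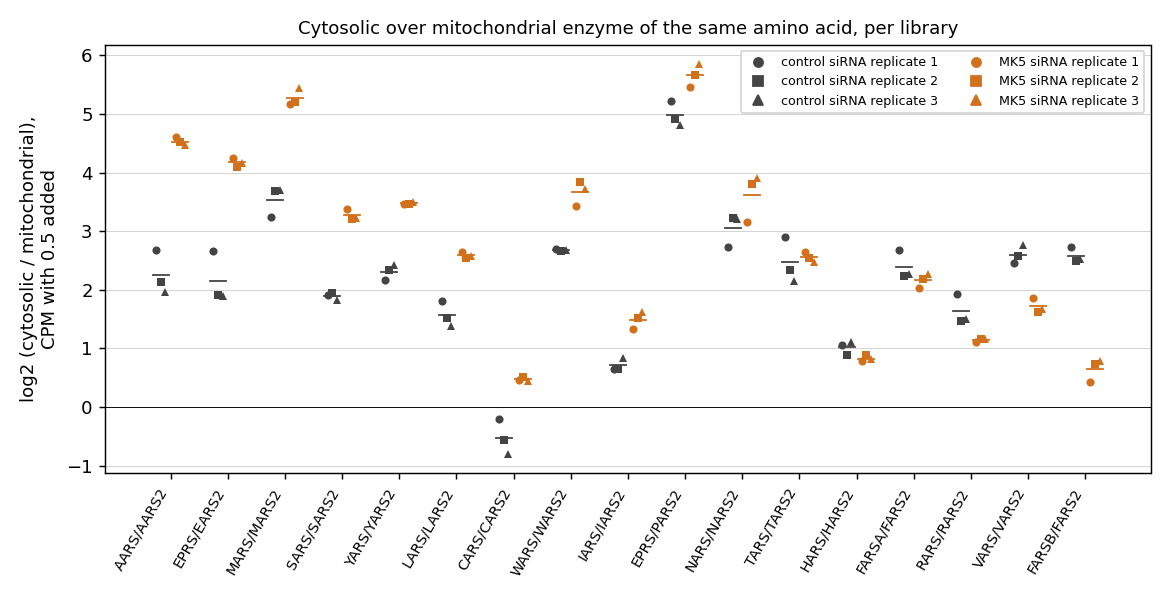
Log2 ratio of the cytosolic to the mitochondrial enzyme of the same amino acid (CPM with 0.5 added) in each library, with 3 control siRNA libraries in grey and 3 MK5 siRNA libraries in orange. Bars are group means, marker shapes are replicates 1 to 3, and combinations are ordered by the change, from 2.27 in AARS/AARS2 to −1.93 in FARSB/FARS2.

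To compare levels between genes, CPM was divided by the length of all exons joined (GENCODE 29), giving CPM per kilobase. In the controls the cytosolic genes ran from 18.1 (CARS) to 92.4 CPM per kilobase (SARS), with a median of 46.0. The mitochondrial genes ran from 2.84 (PARS2) to 50.6 (IARS2), with a median of 11.6. After MK5 siRNA the medians were 65.8 and 10.1. GARS then had the highest level per kilobase of all members, 234, followed by SARS at 193 and AARS at 130.3, and in controls it had stood at 75.1, below QARS (86.2) and SARS. FARSB fell from 25.4 to 8.36 CPM per kilobase, while its partner FARSA was above it in both groups, at 36.0 in controls and 38.8 after MK5 siRNA.

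Of 15 listed genes that assist tRNA charging 8 fell, 2 rose and 5 did not pass, with a median of −0.55, where 23.7% of all tested genes fell and 22.5% rose. SSB, the La protein that binds new tRNA transcripts, went from 143 ± 29.01 to 73.8 ± 3.699 CPM (SD, n = 3; −0.95 ± 0.16, edgeR adjusted p = 0.00316). TARSL2, a further cytosolic threonine enzyme outside the 38 genes, rose from 8.81, 9.58 and 9.11 CPM to 38.8, 34.7 and 32.8 CPM (1.95 ± 0.12, edgeR adjusted p = 0.000209). QRSL1 and GATC, subunits of the amidotransferase that makes glutamine tRNA in mitochondria, changed by −0.56 ± 0.13 and −0.84 ± 0.12 (edgeR adjusted p = 0.013 and 0.00167), while GATB, the other subunit, changed by −0.33 ± 0.18 and did not pass (edgeR adjusted p = 0.173). QRSL1, GATC and GATB were named after their values were seen.

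Among the factors that use charged tRNA, the counts lay near the shares of all tested genes (22.5% rose and 23.7% fell). Of 9 tested cytosolic elongation and release factors 3 rose and 3 fell (median −0.077), with ABCE1, a ribosome recycling factor, at −1.26 ± 0.17, EEF2K, the kinase that slows elongation, at 0.75 ± 0.10, the release factor ETF1 at 0.74 ± 0.10 and EIF5A at −0.55 ± 0.13 (edgeR adjusted p from 0.00131 to 0.0143). EEF1G, a subunit of the elongation factor that every cell uses, was listed at 0 counts in 5 libraries and at 1 in the other. Of 10 mitochondrial translation factors 3 rose and 3 fell (median −0.25). MTFMT, which is also among the 15 genes above and formylates the methionine charged by MARS2, changed by −0.77 ± 0.20, and MTRF1, MTIF3 and MTRF1L, which act in release and initiation, by 0.67 ± 0.15, 0.67 ± 0.11 and 0.54 ± 0.10 (edgeR adjusted p from 0.00308 to 0.0196). The falling mitochondrial factors, TUFM, GFM1 and MTFMT (the first 2 named after their values were seen), had all MK5 siRNA libraries below all controls. Of the 10 factors 4 were lower without overlap and 3 higher, where 29.8% and 30.6% of all tested genes were. None of TUFM, GFM1 and MTFMT passed without control replicate 3 or MK5 siRNA replicate 2 or 3. In those fits 37.1%, 30.5% and 31.2% of all tested genes passed.

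Of 17 listed genes of amino acid sensing and the eIF2alpha kinase response 10 rose, 4 fell and 3 did not pass, with a median of 0.69, where 22.5% of all tested genes rose and 23.7% fell. TRIB3, a pseudokinase induced by ATF4, was at 21.3, 24.1 and 25.7 CPM in the controls and 176, 192 and 194 CPM after MK5 siRNA (2.98 ± 0.12, edgeR adjusted p = 0.000148), and DDIT3 and ASNS changed by 2.98 ± 0.25 and 2.57 ± 0.46 (edgeR adjusted p = 0.000343 and 0.00426). EIF2AK3, the eIF2alpha kinase PERK of the endoplasmic reticulum, rose from 20.99, 10.8 and 9.95 to 76.95, 69.8 and 70.6 CPM (2.38 ± 0.29, edgeR adjusted p = 0.0011). EIF2AK4, the kinase GCN2 that senses uncharged tRNA, went from 203 ± 19.5 to 159 ± 9.398 CPM (SD, n = 3; −0.35 ± 0.11, edgeR adjusted p = 0.0378), and EIF2S1, their substrate eIF2alpha, changed by −1.26 ± 0.12 (edgeR adjusted p = 0.000544). ATF4 itself was at 357, 202 and 212 CPM in the controls and 859, 924 and 933 CPM after MK5 siRNA (1.82 ± 0.23, edgeR adjusted p = 0.00126). Control replicate 1 was the highest control for ATF4, as it was for every rising cytosolic gene except SARS and RARS. For those, and for the rising RARS2, VARS2 and CARS2, it was the lowest control. It was the highest control for DARS and MARS2, which fell. The part of ATF4 in the changes of the members was not tested. EIF2AK4, EIF2S1 and ATF4 were named after their values were seen.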

How the data were processed

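Per the submitters' processing notes, FastQC, Trimmomatic 0.36, TopHat2 2.1.1, HTSeq 0.9.1 and GRCh37 were used, with no role, and the sources used here do not give the annotation or strand setting. Per the labels' protocols, libraries came from the TruSeq V2 RNA kit. The deposited table holds raw whole-number counts per gene, although its name says CPM. Where a symbol was repeated, the row with the highest mean count stood for it.

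Counts were filtered with filterByExpr (least count 10, least total 15), scaled by TMM and tested with edgeR 4.0.16 (quasi-likelihood, R 4.3.3, no block), two-sided, on all genes. Scripts were tested on simulated counts. The standard error is the fold change divided by the square root of F. Alternatives used DESeq2 1.42.0, limma 3.58.1 (voom), other scalings, no filter, a block and left-out libraries. Deviations from group means of same-numbered libraries correlated at 0.258, 0.206 and 0.248 across genes, which meets the criterion set for pairing (each over 0.1), so a fit with the number as a block was run beside the unpaired one. Unlike numbers 2 and 3 correlated at 0.182 and 0.151, so mainly replicate 1 is told apart, and no label states the pairing. All p-values and errors come from the unpaired fit unless the block is named. Nothing says whether the replicates were separate cultures, so p-values measure only the spread between these libraries. Exon lengths and overlaps came from the basic set of GENCODE 29 (GRCh38), which differs from the build named above. Named genes are all 38 members, MAPKAPK5 and up to 4 passing genes of largest change per listed pathway, of which 1 gene, like 2 promoter sequences, is not reported here. The members and lists were chosen with earlier results of these data known.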

Additional observations from a re-analysis of the deposited data

How the results depend on the processing

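Of the 21 members that passed, 17 passed in the same direction under all 13 alternatives tried: the 11 rising cytosolic genes, RARS2, VARS2, FARSB, LARS2, EARS2 and AARS2. DARS, CARS2, MARS2 and AIMP2 did not pass under some. Leaving out each library in turn gave 11 to 12 rising and 1 to 5 falling cytosolic genes (5 without control replicate 1, 1 without MK5 siRNA replicate 2 or 3), 2 to 4 rising and 3 to 6 falling mitochondrial genes, and class medians of 0.47 to 0.53 and −0.20 to −0.049. Over all genes 2064 to 4455 rose (15.1% to 32.3% of those tested) and 2103 to 4419 fell (15.4% to 32.1%). The most passed without control replicate 1 and the fewest without MK5 siRNA replicate 2. In the same order, tRNA charging genes gave 1 to 3 rises and 6 to 10 falls, elongation and release factors 2 to 3 and 1 to 3, mitochondrial factors 2 to 3 and 0 to 5, and eIF2alpha kinase genes 8 to 13 and 1 to 4. Without replicate 1 of both groups 5195 genes rose (37.9% of those tested) and 5177 fell (37.8%). In that fit 14 of the 20 cytosolic genes rose and 6 fell, and 6 of the 16 mitochondrial genes rose and 7 fell. There were also 5 falling mitochondrial factors and 5 rising tRNA charging genes. TARS2 passed under 7 of the 13. DESeq2 called 5 mitochondrial rises, adding PARS2 and TARS2, where 24.2% of all tested genes rose. Without a filter 2 eIF2alpha kinase genes fell, where 14.2% of all tested genes did. The cause was not tested. YARS2 ran from −0.16 to 0.057 and AIMP1 from −0.10 to 0.092 with 1 library left out, turning sign without control replicate 1, and were at 0.024 and −0.096 without replicate 1 of both groups. With the replicate block HARS and NARS2 also passed downward and TARS2 upward, and no other member's call changed. That gave 3 falling cytosolic, 5 falling and 4 rising mitochondrial genes, where 23.5% of all tested genes rose and 23.9% fell. Ratio changes kept their direction with a pseudocount of 2 CPM, with raw counts, without replicate 1 of both groups and, in an alternative chosen after seeing the data, without each library, except that TARS over TARS2 ran from −0.066 (without control replicate 3) to 0.31. At these depths the least counted member, PARS2, had at least 162 counts in a library.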
